A study of Rattus norvegicus with 18 samples.

Results

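The genes described here make the molecules with which cells present peptides to T cells, and 10 of them were chosen by name: the class II chains RT1-Ba, RT1-Bb, RT1-Da and RT1-Db1, the class II invariant chain Cd74, the class I heavy chain RT1-CE5, the immunoproteasome subunits Psmb8 and Psmb9, and the peptide transporter chains Tap1 and Tap2. Every probe set whose only annotated gene symbol was one of these was kept, which gave 20 probe sets, out of 14217 genes and 31042 probe sets in all. RT1-CE5 had 5 probe sets, RT1-Ba had 4, RT1-Bb, RT1-Db1 and Tap1 had 2 each, and the other genes had 1. A further probe set named RT1-CE5 among 5 symbols and was not counted; its log2 signal ran from 6.3 to 7.5. The genes were chosen with results of these animals in view, including their split into high and low values between animals, so that split is given as a description.

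RNA was measured in livers of adult male Sprague Dawley rats, an outbred stock, after 8 weeks of feeding and an overnight fast. The HFD+PE group ate a high fat diet and were given an extract of pomegranate skin daily (150 mg per kg of body weight), the HFD group ate the high fat diet, and the chow group ate chow. The series concerns prevention of fatty liver disease by the extract. Each group had 6 arrays. In 1 pair of arrays per group no probe set outside the described genes differed by over 2 log2 units, against 17 to 102 probe sets in the other 150 pairs of arrays, and each such pair was averaged and counted as 1 animal. This left 15 animals, 5 per group, named by array number (HFD+PE 3-4, HFD 1-2 and chow 3-4 are the averaged pairs). The SD of the difference over probe sets was 0.117 in the HFD pair and 0.215 in the chow pair, against at least 0.259 in the other pairs of arrays. In the HFD+PE pair it was 0.260, no smaller than in the closest of the others, so this pair rests on the first count alone. The level of hybridization controls differed within the HFD+PE pair and also within the chow pair. The arrays of the HFD+PE pair also differed in a number of unstated meaning in their labels. This pairing is inferred from the values, since in the labels each array is a biological replicate.

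Class II molecules are pairs of an alpha and a beta chain on macrophages, dendritic cells and B cells; in the rat, RT1-B and RT1-D correspond to the mouse I-A and I-E molecules. The invariant chain guides newly made class II molecules to the compartment where peptides from engulfed proteins are loaded. Class I molecules, present on nearly all nucleated cells, carry peptides that the proteasome cuts in the cytosol and that the transporter moves into the endoplasmic reticulum; interferon gamma is known to induce genes of both pathways. In liver, Kupffer cells, the resident macrophages, are a main source of class II. The class I and class II genes of the RT1 complex, the rat's major histocompatibility complex, are among the most polymorphic in the genome. Livers were measured whole, so fewer cells of a type and less RNA per cell cannot be told apart.

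In the RefSeq annotation of build GRCr8, 9 of the 10 genes lie on chromosome 20, in the order RT1-CE5, RT1-Da, RT1-Db1, RT1-Ba, RT1-Bb, Tap2, Psmb8, Tap1, Psmb9, and Cd74 lies on chromosome 18. From RT1-Da to Psmb9 only RT1-Db2 and RT1-DOb are further protein-coding genes. All 10 genes had a promoter window in RefSeq, from 250 bases before the gene's start to 50 after it. These windows were searched on both strands for the core of the X box (ACNGATG) and for the Y box (ATTGG), letters known from class II promoters, and for the core of the interferon-stimulated response element, ISRE (GAAANNGAA), and the gamma-activated sequence, GAS (TTCNNNGAA). The stretch from 125 to 26 bases before the start is shown for the class II chains, RT1-CE5 and the transporter genes. Each runs 5′ to 3′ on the gene's own strand, and capitals mark the letters of any of these motifs.
RT1-Ba (chr20:4576932-4577031, plus strand): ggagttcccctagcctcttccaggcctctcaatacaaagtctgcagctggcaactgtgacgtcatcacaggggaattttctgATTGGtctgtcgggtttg
RT1-Bb (chr20:4604144-4604243, minus strand): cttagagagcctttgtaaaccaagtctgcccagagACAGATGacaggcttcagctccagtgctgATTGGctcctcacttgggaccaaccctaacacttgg
RT1-Da (chr20:4515290-4515389, plus strand): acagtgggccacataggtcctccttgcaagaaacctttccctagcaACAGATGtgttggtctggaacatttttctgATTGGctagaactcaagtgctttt
RT1-Db1 (chr20:4560188-4560287, minus strand): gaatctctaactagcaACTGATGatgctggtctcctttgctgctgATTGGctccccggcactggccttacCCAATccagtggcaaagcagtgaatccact
RT1-CE5 (chr20:3484116-3484215, minus strand): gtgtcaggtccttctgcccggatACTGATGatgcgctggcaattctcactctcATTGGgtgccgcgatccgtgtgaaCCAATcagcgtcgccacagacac
Tap1 (chr20:4668569-4668668, minus strand): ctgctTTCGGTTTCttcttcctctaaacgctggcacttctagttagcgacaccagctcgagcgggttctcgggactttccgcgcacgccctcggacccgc
Tap2 (chr20:4652322-4652421, minus strand): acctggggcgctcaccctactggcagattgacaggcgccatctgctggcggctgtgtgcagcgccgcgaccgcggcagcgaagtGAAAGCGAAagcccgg

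RT1-Bb, RT1-Da, RT1-Db1 and RT1-CE5 held an X box core followed by a Y box, with 29 or 30 bases between their first letters. An X box core and a Y box within 40 bases of each other were found in 1.31% of the 33469 promoter windows of the build. Alone, the X box core stood in 10.2%, the Y box in 37.5%, the ISRE core in 9.71% and the GAS letters in 8.87% of windows. The RT1-Ba window held a Y box with no X box core in these letters. The Cd74 window held only a Y box, at -189 from the start and on the other strand. The ISRE core stood in the windows of Psmb8, Tap1 and Tap2. The Psmb8 window also held the GAS letters and a Y box, and the Psmb9 window a Y box 22 bases after the gene's start. Tap1 and Psmb9 lie on opposite strands, and their windows overlap. The ISRE core of Tap1 lies between the starts of these genes, outside the Psmb9 window. These matches describe the letters of the annotated genome and are no measurement of binding.

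The probe sets of RT1-Ba, the alpha chain of RT1-B, split the animals. Values below are log2 signals, in the order HFD+PE 1, 2, 3-4, 5 and 6, then HFD 1-2, 3, 4, 5 and 6, then chow 1, 2, 3-4, 5 and 6. Probe set 1377334_at read 4.9, 9.8, 9.0, 8.6 and 4.5 in HFD+PE livers, 4.7, 9.0, 9.3, 8.9 and 8.9 in HFD livers, and 5.4, 11.0, 4.7, 5.1 and 9.2 in chow livers. It was high in 9 animals and low in 6, with an empty stretch of 3.20 log2 units between 5.4 and 8.6. High animals were found in every group: 3 of 5 HFD+PE, 4 of 5 HFD and 2 of 5 chow animals. A probe set was called on-off where such a gap reached 1.5 log2 units with at least 2 animals on each side. By this rule 3 of the 20 probe sets were on-off, against 28 of all 31042 (0.0902%); since the split was known when the genes were chosen, nothing is read from that difference.

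The other RT1-Ba probe sets did not follow this one. Probe set 1381593_x_at, the brightest for the gene, read 9.5, 7.2, 7.5, 8.5 and 9.3 in HFD+PE livers, 9.3, 8.9, 7.5, 8.8 and 8.7 in HFD livers, and 9.6, 7.1, 9.55, 9.2 and 9.1 in chow livers. It was at its lowest in chow 2, HFD+PE 2, HFD+PE 3-4 and HFD 4, all of which were high by 1377334_at. Across the 15 animals, which share 1 array platform and 1 normalization, the correlation of these probe sets was r = -0.80 (Spearman's rho -0.83) and stood at -0.83 within groups. Probe set 1392334_at moved with 1381593_x_at, r = 0.99, between 7.3 and 9.4. Both have the same source sequence in the annotation, so they are not separate evidence. The fourth, 1370822_at, read 6.9, 7.2, 8.35, 6.9 and 7.3 in HFD+PE livers, 7.05, 7.2, 7.0, 7.3 and 7.2 in HFD livers, and 7.4, 7.9, 7.5, 8.3 and 7.3 in chow livers, with no gap above the rule. A liver could thus be bright by one probe set of RT1-Ba and dim by another. An array signal depends both on the RNA present and on how well it pairs with the probes; genotypes were not measured, and for these polymorphic genes an RNA level and the match of an animal's allele to the probes cannot be told apart.

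**Figure D1:**
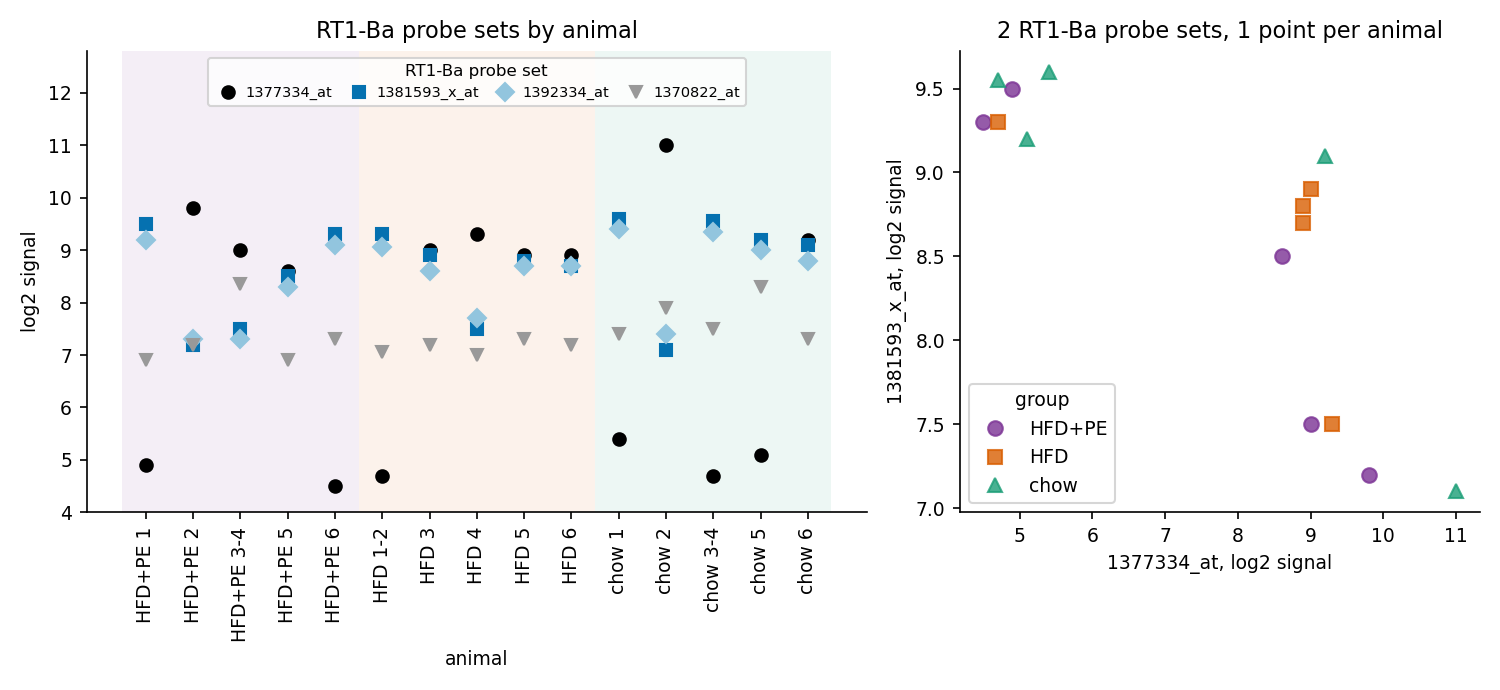
Left, log2 signal of the 4 RT1-Ba probe sets (symbols) in each animal, with shading for HFD+PE, HFD and chow; right, 1381593_x_at (vertical) against 1377334_at (horizontal), 1 point per animal, coloured by group. In 1377334_at, 6 animals sit at 5.4 or below and 9 at 8.6 or above, and each group has animals on both sides; the animals lowest by 1381593_x_at are high by 1377334_at (r = -0.80).

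RT1-Bb, the beta chain that pairs with RT1-Ba, had a different split. Probe set 1371033_at read 6.8, 3.9, 6.85, 6.1 and 7.1 in HFD+PE livers, 7.05, 6.4, 4.4, 6.3 and 6.2 in HFD livers, and 6.9, 4.2, 7.15, 7.9 and 6.7 in chow livers. A single animal of each group was low, namely HFD+PE 2, HFD 4 and chow 2, and the other 12 animals were high, with a gap of 1.70 between 4.4 and 6.1. This was the on-off probe set nearest to the limit of the rule. The second RT1-Bb probe set, 1371065_at, read 3.5, 3.5, 3.6, 3.5 and 3.1 in HFD+PE livers, 3.25, 3.2, 3.4, 3.2 and 3.4 in HFD livers, and 3.0, 7.0, 3.2, 2.9 and 3.3 in chow livers. It stood out in chow 2, one of the animals low by 1371033_at, and with 1 high animal it did not meet the rule.

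RT1-CE5, a class I heavy chain, split in yet another way. Probe set 1371209_at read 8.8, 3.5, 5.6, 7.7 and 7.7 in HFD+PE livers, 9.3, 7.2, 3.4, 7.0 and 8.5 in HFD livers, and 7.8, 5.6, 8.4, 9.5 and 7.5 in chow livers. It was low in HFD+PE 2 and HFD 4, with a gap of 2.10 up to 5.6 log2 units, and no chow animal was on the low side. Probe set 1388255_x_at read 7.0, 3.0, 4.8, 6.0 and 6.0 in HFD+PE livers, 7.55, 5.9, 3.4, 5.8 and 6.9 in HFD livers, and 6.3, 4.8, 6.75, 8.0 and 6.3 in chow livers. It followed 1371209_at (r = 0.99) but, with a gap of 1.40, fell just outside the rule. Both have the same source sequence in the annotation, so they are not separate evidence. The brightest RT1-CE5 probe set, 1370972_x_at, was lowest in the same animals, at 7.0 in HFD+PE 2 and 7.2 in HFD 4, within a continuous range up to 9.1. Of the animals on the high side of 1371209_at, HFD+PE 3-4 and chow 2 were lowest, both at 5.6. The remaining RT1-CE5 probe sets, 1371210_s_at at 3.6 to 4.5 and 1388254_a_at at 3.1 to 3.4, lay below the array medians of 5.4 to 5.5. The suffixes _x_at and _s_at mark probe sets with probes that also match other transcripts. Probe sets 1370972_x_at and 1388255_x_at may thus report related class I genes as well. The same limit holds for RT1-Ba 1381593_x_at and RT1-Db1 1370383_s_at.

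**Figure D2:**
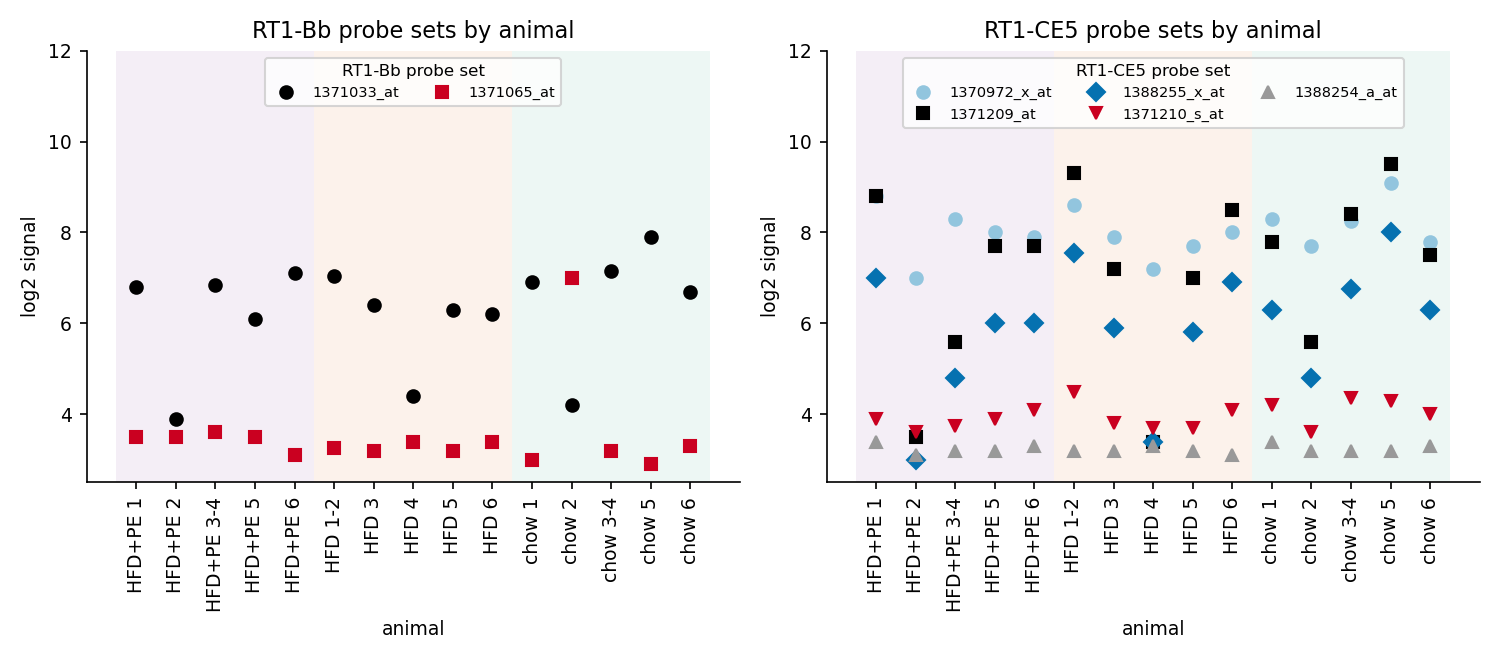
Log2 signal of the 2 RT1-Bb probe sets (left) and the 5 RT1-CE5 probe sets (right) in each animal, with shading for HFD+PE, HFD and chow. RT1-Bb 1371033_at is at 4.4 or below in HFD+PE 2, HFD 4 and chow 2, RT1-CE5 1371209_at is at 3.5 or below in HFD+PE 2 and HFD 4, and RT1-Bb 1371065_at reaches 7.0 in chow 2 alone.

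Together the 3 on-off probe sets gave 4 of the possible combinations. HFD+PE 3-4, HFD+PE 5, HFD 3, HFD 5, HFD 6 and chow 6 were high in all of them. Another 6 animals, HFD+PE 1, HFD+PE 6, HFD 1-2, chow 1, chow 3-4 and chow 5, were high for RT1-Bb and RT1-CE5 and low for RT1-Ba 1377334_at. HFD+PE 2 and HFD 4 were low for RT1-Bb and RT1-CE5 and high for RT1-Ba, and chow 2 was low for RT1-Bb alone. No animal was low in all of them.

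On-off probe sets of other genes were also looked up by position. Of the 28, 19 named 1 gene with a chromosome in the annotation, and 7 of these lay between the first RT1 gene, RT1-M2, and the last, RT1-A1. The described genes, chosen with their split known, supply 3 of the 7. Without their probe sets the stretch held 132 placed probe sets with 4 on-off (3.03%), against 12 of the 20607 placed probe sets outside it (0.0582%), and 9 on-off probe sets had no placed gene. The 4 were RT1-CE10, RT1-CE12 and RT1-T24-4, all class I genes by name, and Ubd, a ubiquitin-like protein. The RT1 probe sets among them, 1388203_x_at, 1388236_x_at and 1389734_x_at, all carry the suffix _x_at. They may report transcripts of related RT1 genes, so a shared pattern need not mean separate genes. Among protein-coding genes of the stretch, 3 of 16 probe sets of RT1 genes other than the described ones were on-off. Of the 120 probe sets of genes not named RT1, 1 was on-off. These 120 include the described probe sets of Psmb8, Psmb9, Tap1 and Tap2, none of them on-off. The median of the largest gap between neighbouring animals, with at least 2 animals on each side, was 0.25 log2 units for these RT1 genes and 0.1 for the other genes, as for all probe sets. This is a description with no test. RT1-CE10 (1388203_x_at) was low in HFD+PE 2, HFD+PE 3-4, HFD 4 and chow 2, which includes every animal low for RT1-Bb or RT1-CE5 and matches the animals lowest for RT1-Ba 1381593_x_at. A probe set with no symbol, 1392954_at, was high in the same 9 animals as RT1-Ba 1377334_at.

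**Figure D3:**
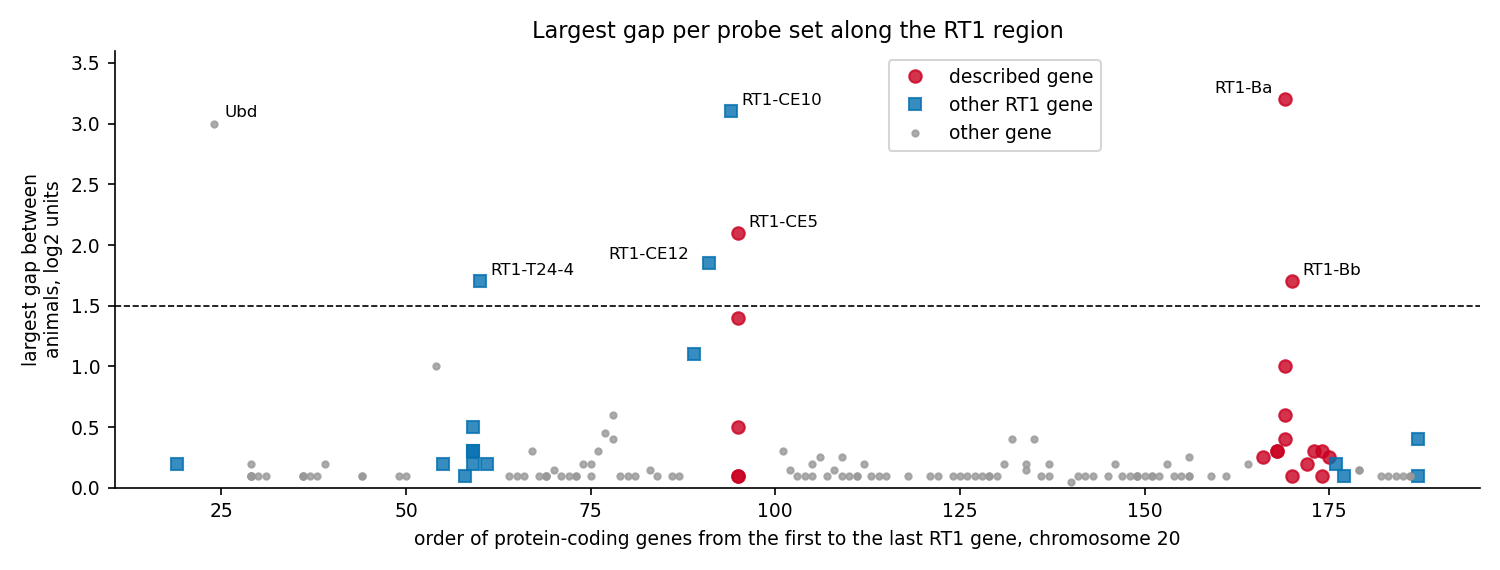
Largest gap between neighbouring animals, in log2 units and with at least 2 animals on each side, for each of 150 probe sets of protein-coding genes from the first to the last RT1 gene of chromosome 20, placed by the order of the genes. Red points are the described genes, blue points other RT1 genes and grey points other genes; the dashed line marks the limit of 1.5, above which 7 probe sets lie, 3 of them of the described genes, 3 of other RT1 genes and 1 of Ubd.

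The genes most like each on-off probe set were listed by Pearson correlation over the 15 animals, as a description with no test. RT1-Ba 1377334_at was most like RT1-A, a class I gene (r = 0.95), and RT1-T24-4 (0.93), followed by Guca2a (0.83), Cdc42ep1 (0.82) and Flot1 (0.81). RT1-CE5 1371209_at was most like RT1-CE10 (0.90) and RT1-CE12 (0.88), followed by Exph5 (0.87), Tap1 (0.86) and RT1-Ba 1381593_x_at (0.86). The probe sets of RT1-CE10, RT1-CE12 and RT1-T24-4 end in _x_at and may report related genes as well. RT1-Bb 1371033_at was most like Cmya5 (0.88), RT1-CE5 (0.85), RT1-Ba 1381593_x_at (0.83), Kynu (0.82) and Npas2 (0.82). Above these, the probe sets 1392954_at (r = 0.97) and 1391258_at (r = 0.96), which have no symbol, were the most like RT1-Ba 1377334_at. Among named genes its nearest companions were RT1 genes, while the RT1-Ba probe set that goes the other way stood near RT1-CE5 and RT1-Bb.

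RT1-Da and RT1-Db1, the alpha and beta chains of RT1-D, showed no such split. RT1-Da (1370883_at) read 8.0, 8.9, 9.05, 8.5 and 8.6 in HFD+PE livers, 8.45, 8.7, 8.4, 8.9 and 8.8 in HFD livers, and 8.4, 10.1, 8.65, 9.3 and 8.9 in chow livers. RT1-Db1 (1370383_s_at) read 8.1, 8.3, 8.8, 8.2 and 8.3 in HFD+PE livers, 8.2, 8.5, 8.2, 8.5 and 8.4 in HFD livers, and 8.3, 9.8, 8.35, 9.0 and 8.8 in chow livers. By both probe sets chow 2 was the highest of the 15 animals, and the groups overlapped. The second RT1-Db1 probe set, 1370382_at, lay at 3.5 to 4.8 and was highest in chow 5, with chow 2 at 4.1.

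Cd74, the invariant chain, also had continuous values. It read 9.7, 10, 10.35, 9.6 and 10.1 in HFD+PE livers, 9.95, 10.2, 9.6, 10.1 and 10 in HFD livers, and 10, 11.2, 10.15, 10.5 and 10.4 in chow livers. Chow 2 was again highest. Although Cd74 lies on another chromosome, it followed RT1-Db1 1370383_s_at across the 15 animals (r = 0.95, rho 0.94, and r = 0.89 without chow 2) and RT1-Da (r = 0.91, rho 0.82, and 0.80 without chow 2). With RT1-Db1 1370382_at, a dim probe set, Cd74 had r = 0.62 and rho 0.72. Among the RT1-Ba probe sets Cd74 followed 1370822_at (r = 0.73, rho 0.84). With the other RT1-Ba probe sets it had r = 0.28 (1377334_at), -0.26 (1381593_x_at) and -0.25 (1392334_at). With RT1-Bb 1371033_at it had r = -0.06 (rho 0.25, and r = 0.51 without chow 2). With RT1-Bb 1371065_at it had r = 0.67 (rho -0.14, and r = -0.45 without chow 2). RT1-Da and RT1-Db1 1370383_s_at followed each other (r = 0.95, rho 0.90, and 0.87 without chow 2). Signals of different probe sets are not on one scale, so levels are not compared between genes.

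Chow 2 also stood apart in genes that mark other cells. Of 10 measured macrophage and Kupffer cell markers, among them Clec4f, Cd163 and C1qa, 9 were highest in chow 2, and the mean of the list was 9.42 there against 7.50 to 8.79 in the other animals. The 5 hepatocyte markers averaged 13.6 in chow 2 and 13.8 to 14.1 in the others. Cyp2e1 was at 12.4 in chow 2 against 12.9 to 13.7, and Ttr at 14.1 against 14.2 to 14.4. Alb, Apoa1 and Serpina1 lay within the range of the other animals. Of 15 measured class II accessory genes 7 were highest in chow 2 and the other 8 were not, with a list mean of 8.10 there and 7.58 to 7.85 in the other animals. The following are 4 of the 7, picked for being high there. Cathepsin S (Ctss), which trims the invariant chain, was at 10.4 in chow 2 and at 8.4 to 9.65 in the other animals. RT1-DMb and RT1-DMa, the chains that help to load class II, stood at 8.3 and 7.0 in chow 2, above 6.8 to 7.9 and 5.8 to 6.3. Ciita, the class II transactivator, was at 6.0 in chow 2 and 5.3 to 5.8 in the others. The 4 measured B cell markers had a list mean of 4.70 to 5.01, below the array medians; Cd22 averaged 6.32, and of the defining markers Cd79b ran from 4.0 to 4.4 and Ms4a1 from 4.4 to 5.2. The dendritic cell list lay at 5.26 to 5.73 and was highest in chow 2, at 5.725 against at most 5.675 in the others. The lists of sinusoidal endothelium (8.76 against at most 8.74) and T cells (4.875 against at most 4.86) were also highest there. So was the interferon response (7.99 against at most 7.96). Class I loading (9.4 against at most 9.36) and proteasome genes (9.56 against at most 9.52) were too. Lists of B cells, NK cells, erythrocytes and other class I heavy chains were not. The part of any of these cell types in the class II values was not tested.

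The immunoproteasome subunits, which replace catalytic subunits of the standard proteasome, had continuous values. Psmb8 read 8.9, 9.4, 9.75, 8.9 and 9.3 in HFD+PE livers, 9.8, 9.6, 9.2, 9.5 and 9.4 in HFD livers, and 9.3, 10.2, 9.55, 10.1 and 9.4 in chow livers. Psmb9 read 8.6, 8.4, 8.9, 8.7 and 9.1 in HFD+PE livers, 9.95, 8.9, 8.4, 9.1 and 9.0 in HFD livers, and 9.3, 9.4, 9.65, 9.4 and 9.2 in chow livers. For Psmb9 every HFD+PE animal lay below every chow animal, while the HFD animals spanned both groups. Psmb8 followed Cd74 (r = 0.84, rho 0.74), and Psmb9 followed Tap1 1388149_at (r = 0.83, rho 0.79) but less so the dimmer Tap1 1375379_at (r = 0.32, rho 0.45).

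The transporter chains, which form 1 complex, also had continuous values. Tap1 (1388149_at) read 7.8, 7.2, 7.75, 7.7 and 7.9 in HFD+PE livers, 8.15, 7.8, 7.4, 7.8 and 7.8 in HFD livers, and 7.9, 7.8, 7.9, 8.0 and 7.7 in chow livers. Its lowest animals were HFD+PE 2 and HFD 4, the animals low for RT1-CE5. Tap2 read 6.2, 6.6, 7.2, 7.0 and 6.7 in HFD+PE livers, 6.75, 6.6, 6.8, 6.5 and 6.7 in HFD livers, and 6.5, 7.2, 6.7, 7.0 and 6.7 in chow livers, with overlap between all groups. The second Tap1 probe set, 1375379_at, lay at 4.0 to 4.7.

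**Figure D4:**
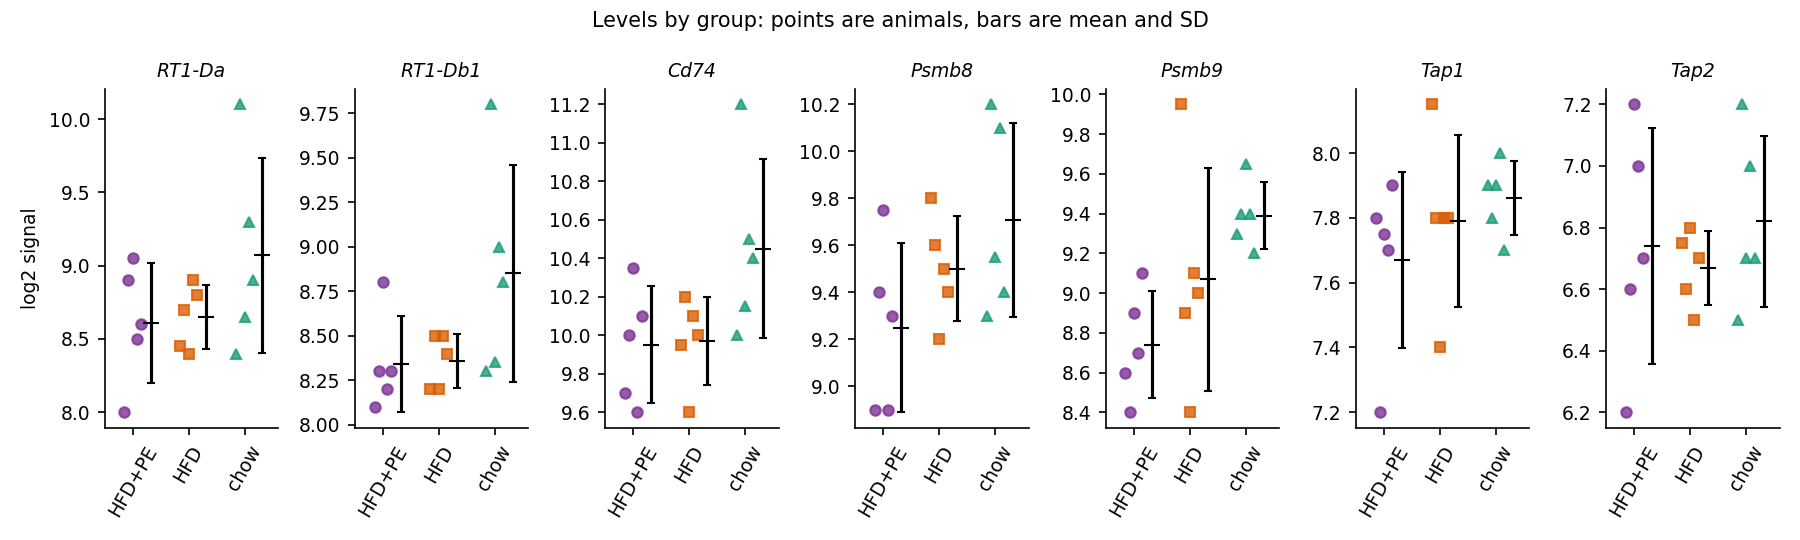
Log2 signal of RT1-Da, RT1-Db1 (1370383_s_at), Cd74, Psmb8, Psmb9, Tap1 (1388149_at) and Tap2 in the HFD+PE, HFD and chow groups, each panel with an axis of its own; points are animals and bars the mean ± SD (n = 5). Chow 2 is the top point for RT1-Da (10.1), RT1-Db1 (9.8) and Cd74 (11.2), and Psmb9 is the panel in which HFD+PE (up to 9.1) and chow (from 9.2) do not overlap.

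The diet groups were compared with limma's moderated test on the 15 animals, with Benjamini-Hochberg adjustment over 31042 probe sets. No probe set of the 20 passed an adjusted p of 0.05 in any comparison or in the F test for any difference between the 3 groups, and none of the 31042 did either (0.0%). The smallest adjusted p over all probe sets was 0.118 for HFD against chow, 0.990 for HFD+PE against HFD, 0.112 for HFD+PE against chow and 0.200 for the F test. At an unadjusted p under 0.05 stood 3, 0 and 4 of the 20 probe sets in these comparisons, and 2073, 879 and 2743 of all. Comparisons against chow share the chow animals, and both comparisons with HFD share the HFD animals.

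For HFD against chow, the effect of the high fat diet, Cd74, RT1-Db1 and RT1-Ba were the genes with a probe set at an unadjusted p under 0.05, all lower in HFD livers. The median log2 change of the 20 probe sets was -0.33, with 18 below 0, beside a median of 0.00 and 48.1% below 0 over all probe sets. Without HFD 4 this median was -0.11, with 14 below 0, and without chow 5 it was -0.16, with 18 below 0. Cd74 averaged 9.97 ± 0.23 in HFD livers and 10.5 ± 0.46 in chow livers (SD, n = 5 each), a difference of -0.48 (SE 0.19; adjusted p = 0.690, limma). RT1-Db1 1370383_s_at had a difference of -0.49 (SE 0.22; adjusted p = 0.718, limma) and RT1-Ba 1370822_at one of -0.53 (SE 0.23; adjusted p = 0.715, limma). None of these differences passed the test. Without chow 2, which was highest for Cd74, RT1-Db1 1370383_s_at, RT1-Da and most macrophage markers, the change of Cd74 was -0.29, that of RT1-Db1 1370383_s_at -0.25 and that of RT1-Da -0.16 in place of -0.42. Others moved further below 0 in that fit, RT1-Bb 1371033_at from -0.50 to -1.09 and RT1-CE5 1371209_at from -0.68 to -1.22. RT1-Bb 1371065_at went from -0.59 to 0.19. The median of the 20 probe sets was then -0.27, with 18 below 0. RT1-Ba 1377334_at had a positive change, 1.08 with an SE of 1.31, with 4 of 5 HFD and 2 of 5 chow animals on its high side; without chow 2 it was 2.06.

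For HFD+PE against HFD, the effect of the extract on the high fat diet, no probe set of these genes was at an unadjusted p under 0.05. The median log2 change of the 20 probe sets was -0.08, with 13 below 0, beside 0.01 and 45.7% over all probe sets. Without HFD+PE 2 it was 0.02, with 10 below 0, and without HFD 4 -0.15, with 15 below 0. Psmb9 averaged 8.74 ± 0.27 in HFD+PE livers and 9.07 ± 0.56 in HFD livers (SD, n = 5 each), a difference of -0.33 (SE 0.21; adjusted p = 0.990, limma). Psmb8 had a difference of -0.25 (SE 0.19) and Cd74 one of -0.02 (SE 0.19). The on-off probe sets had wide errors, with -0.80 (SE 1.31) for RT1-Ba 1377334_at, -0.42 (SE 1.05) for RT1-CE5 1371209_at and 0.08 (SE 0.67) for RT1-Bb 1371033_at.

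For HFD+PE against chow, 19 of the 20 probe sets were below 0, with a median of -0.43, beside 0.01 and 46.1% over all probe sets. This median was -0.30 without chow 2, with 17 below 0, and -0.29 without chow 5, with 20 below 0. RT1-Bb 1371065_at, high in chow 2 alone, had a change of -0.44 on all animals and 0.34 without chow 2. Psmb9 averaged 8.74 ± 0.27 in HFD+PE livers and 9.39 ± 0.17 in chow livers (SD, n = 5 each), a difference of -0.65 (SE 0.21; adjusted p = 0.322, limma), and it was the only probe set of the 20 whose groups did not overlap. Groups did not overlap for 313 of the 31042 probe sets in this comparison (1.01%), for 159 in HFD against chow (0.512%) and for 44 in HFD+PE against HFD (0.142%), where none of the 20 was among them. Cd74 had a difference of -0.50 (SE 0.19; adjusted p = 0.438, limma), Psmb8 one of -0.46 (SE 0.19; adjusted p = 0.484, limma) and RT1-Db1 1370383_s_at one of -0.51 (SE 0.22; adjusted p = 0.506, limma). Without chow 2, Psmb9 was at -0.65, Cd74 at -0.31, Psmb8 at -0.34 and RT1-Db1 1370383_s_at at -0.27. Other probe sets then moved further below 0. RT1-Bb 1371033_at went from -0.42 to -1.01, RT1-Ba 1381593_x_at from -0.51 to -0.96 and RT1-CE5 1371209_at from -1.10 to -1.64. At an unadjusted p under 0.05 (limma) stood 6 of the 20 probe sets without chow 2 and 4 with it, and none passed. RT1-CE5 1371209_at had a change of -1.10 (SE 1.05) and 1388255_x_at one of -1.07 (SE 0.77). Without HFD+PE 2 these were -0.31 and -0.48.

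**Figure D5:**
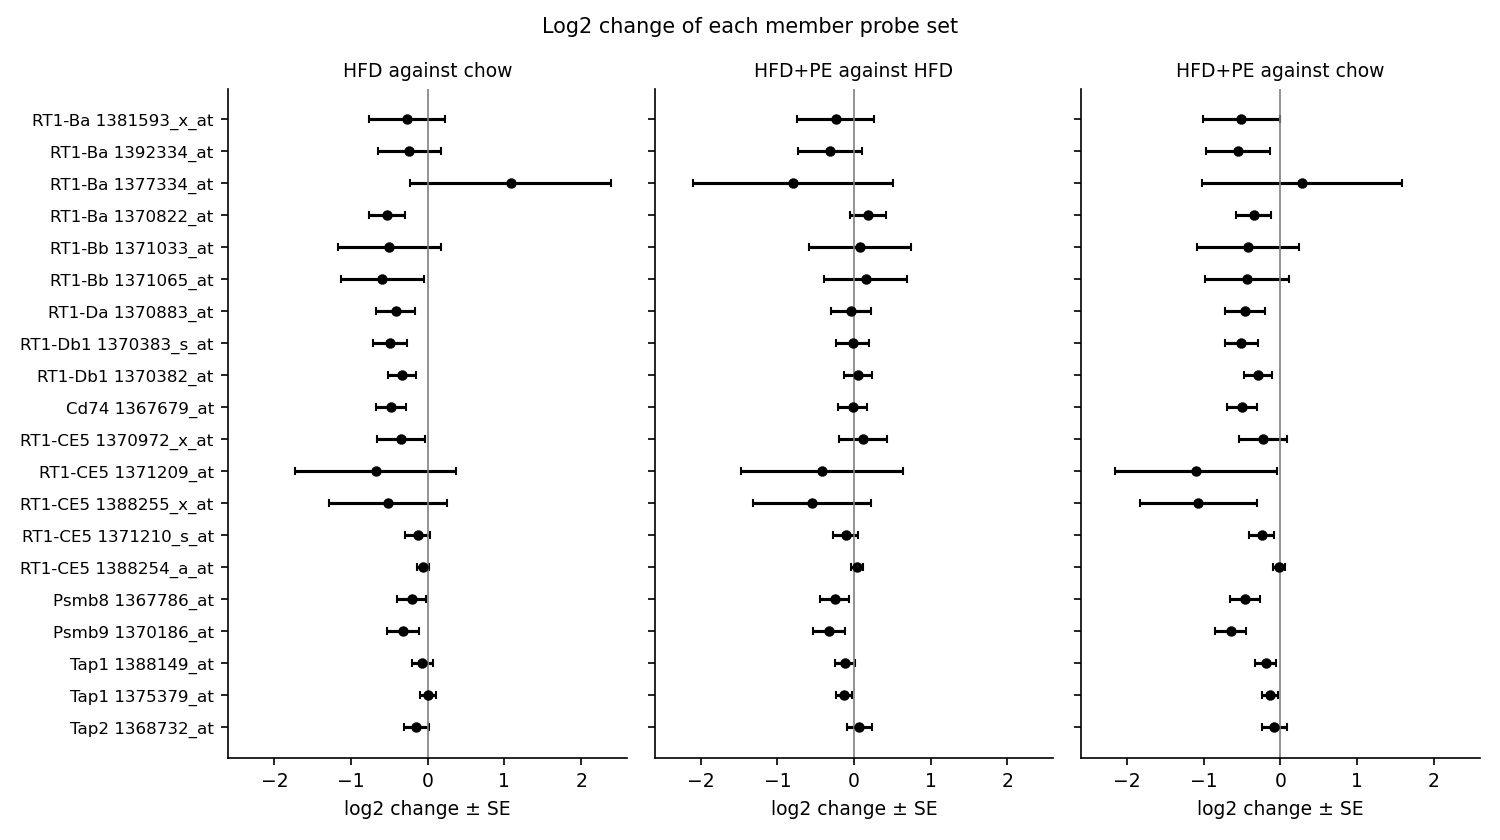
Log2 change (horizontal) of each of the 20 probe sets in the 3 comparisons, as the group difference with its standard error from limma on 15 animals. The widest bars belong to RT1-Ba 1377334_at (SE 1.31) and RT1-CE5 1371209_at (SE 1.05), and no change passed an adjusted p of 0.05.

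By role, the 10 probe sets of class II and the invariant chain had a median change of -0.45 in HFD against chow, -0.02 in HFD+PE against HFD and -0.45 in HFD+PE against chow. The 5 class I probe sets, all of the single gene RT1-CE5, had medians of -0.35, -0.11 and -0.24 in the same order. The 5 immunoproteasome and transporter probe sets had -0.15, -0.13 and -0.19. No probe set of any of these roles passed the test. Macrophage and Kupffer cell markers had median changes of -0.54, -0.33 and -0.82, with 10, 9 and 9 of 10 below 0 and none called; their list mean ran over 7.50 to 8.43 in HFD+PE livers, 7.80 to 8.73 in HFD livers and 8.48 to 9.42 in chow livers. Their part in the changes was not tested.

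Hybridization control transcripts added to the samples split the arrays, with 5 arrays at 12.4 to 12.9 (2 HFD+PE, 0 HFD and 3 chow) and 13 at 11.4 to 11.8 (4 HFD+PE, 6 HFD and 3 chow). The 13 arrays hold no array of chow 1, chow 2 or HFD+PE 1, so control level and choice of animals cannot be told apart there. On these arrays Psmb9 had a change of -0.63 in HFD+PE against chow. Cd74 had one of -0.31, as it also had without chow 2 alone. RT1-CE5 had larger changes, -2.33 for 1371209_at and -2.11 for 1388255_x_at, and none of these was called. With the control level as a covariate on all animals, Psmb9 was at -0.65 and Cd74 at -0.51. The 5 arrays with high controls held no HFD array and were not fitted alone.

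The spread between animals differed among the probe sets. The median within-group SD over all probe sets was 0.168 log2 units, and 7 of the 20 probe sets were among the 1% with the largest, while 13 were not. The genes were chosen with this spread in view, so the count is a description. RT1-Ba 1377334_at had a within-group SD of 2.45, which 0.02% of probe sets matched or passed.

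Other genes of the pathway were taken from 5 lists, of class I heavy chains, class I loading, proteasome, class II accessory genes and the interferon response, with 61 of 92 genes measured. None passed the test in any comparison; the genes named are those with the smallest unadjusted p in each direction. In HFD against chow 14 were higher and 46 lower (median -0.16), in HFD+PE against HFD 14 and 45 (median -0.08), and in HFD+PE against chow 8 and 52 (median -0.23). Below 0 in HFD+PE against chow these were Oasl, an antiviral interferon-induced gene, and Bst2, the virus-tethering protein tetherin. Oasl averaged 5.93 ± 0.32 in HFD+PE livers and 6.61 ± 0.24 in chow livers (SD, n = 5 each), a difference of -0.68 (adjusted p = 0.134, limma), and Bst2 averaged 11.5 ± 0.15 and 12.1 ± 0.23 in the same groups, a difference of -0.60 (adjusted p = 0.143, limma). In HFD against chow Oas1a, another antiviral gene, had a change of -0.67 (SE 0.26) and Ifit3 one of -0.45 (SE 0.17), and on the other side Lnpep and Erap1, aminopeptidases that trim peptides, had 0.29 (SE 0.10) and 0.18 (SE 0.11). In HFD+PE against HFD, Oasl had -0.42 (SE 0.14) and Bst2 -0.36 (SE 0.13), while Cxcl9, an interferon-induced chemokine, had 0.31 (SE 0.17) and Cd40, a costimulatory receptor, 0.13 (SE 0.11). In HFD+PE against chow the kinase Jak1 had 0.21 (SE 0.09) and Rfxap, a subunit of the factor that binds the X box, 0.11 (SE 0.07).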

How the data were processed

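Rat liver RNA was measured on 18 Affymetrix arrays. The deposited table holds a log2 signal for each of 31099 probe sets, made by the authors with Affymetrix Expression Console and RMA per the submitters' processing notes; RMA corrects background, quantile-normalizes the arrays and summarizes probes. Versions of both are not given in the sources. All values were whole multiples of 0.1. Precision is limited by the number of animals and by this rounding, as arrays have no reads to count; detection calls were not used here.

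The 57 control probe sets were left out. Probe sets with 1 symbol in the platform annotation (20826) were named, and 20758 symbols were matched by Entrez identifier. Promoter sequences and gene order are those of RefSeq, build GRCr8; the arrays carry no build. Arrays repeating 1 animal were averaged, as inferred from all 153 pairs of arrays with the described genes set aside. Group differences come from R 4.3.3 and limma 3.58.1 (lmFit with 1 mean per group, eBayes, two-sided, Benjamini-Hochberg over 31042 probe sets); the scripts were tested on simulated data. Python 3.11.15 with pandas 2.3.3 and matplotlib 3.10.9 made the tables and figures. No filter on dim probe sets was used. Other genes named with values were, per comparison, the pathway genes with the smallest unadjusted p in each direction and, for each on-off probe set, the 5 genes most like it; the cell marker and accessory genes shown for chow 2, and the on-off genes outside the list, were picked after their values were seen. Alternatives covered the repeat arrays, replicate numbers, filters, normalization, hybridization controls, variance prior, array weights, and each animal left out. The replicate numbers of the labels were not used to pair animals across groups in the main fit. Of 18 same-numbered pairs of arrays, 4 had a correlation of deviations above 0.1, over a range of -0.30 to 0.15. Pairs with different numbers were not compared, so these values cannot show whether the numbers pair animals. The genes and lists were chosen with earlier results of these data known.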

Additional observations from a re-analysis of the deposited data

Results flagged for a closer look

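In 60 sets of 5 animals (20 probe sets in 3 groups), 8 had an animal whose gap to its nearest neighbour exceeded 0.71 of the range, Dixon's limit (13.3%). Chance gives about 1 in 20, and over all probe sets such an animal was found in 8.39% of sets; the genes were chosen with their split between animals known and their probe sets share animals, so nothing is read from the difference. HFD+PE 3-4 stood apart in 3 of them: RT1-Ba 1370822_at was at 8.35 there and at 6.9 to 7.3 in the other HFD+PE animals, RT1-Db1 1370383_s_at at 8.8 against 8.1 to 8.3, and RT1-Db1 1370382_at at 4.25 against 3.5 to 3.7. Chow 2 stood apart in RT1-Ba 1381593_x_at, at 7.1 beside 9.1 to 9.6 in the remaining chow animals, and in RT1-Bb 1371065_at, at 7.0 against 2.9 to 3.3. HFD 1-2 was the single HFD animal low for RT1-Ba 1377334_at, at 4.7 against 8.9 to 9.3. HFD+PE 2 was low for Tap1 1388149_at, at 7.2 against 7.7 to 7.9, and HFD+PE 6 for RT1-Bb 1371065_at, at 3.1 against 3.5 to 3.6.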

How the results depend on the processing

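No described probe set passed the test under any of the 26 alternatives, 15 of which left out 1 animal each. The median change ran from -0.40 to -0.11 in HFD against chow, from -0.15 to 0.03 in HFD+PE against HFD and from -0.46 to -0.29 in HFD+PE against chow, and 77 of 1515 single changes had another sign than on the 15 animals. The smallest adjusted p of a described probe set over all settings was 0.311, 0.975 and 0.126 in these comparisons. Over all probe sets, 18 arrays counted as separate animals gave 8, 0 and 107 calls against 0 on 15 animals, and 25 by the F test; with the replicate number as a block they gave 7, 0, 75 and 32. With that replicate block the medians of the described probe sets were -0.26, 0.03 and -0.31, and 0 passed. Over all probe sets, 36 passed in HFD+PE against chow and 10 in the F test without HFD+PE 3-4, at most 3 without any other animal, and at most 10 under the other alternatives. The number of on-off probe sets, 3 by the rule used, was 1 with the brightest probe set per gene. A gap of at least 1 gave 5, and a gap of at least 2 gave 2. Centring each array on its median gave 4, as did leaving out arrays whose label number of unstated meaning was 1. In both, RT1-CE5 1388255_x_at was added. Leaving out each animal gave 2 to 3, and RT1-CE5 was lost without HFD 4 or without HFD+PE 2. Signal below the array medians, as for RT1-Db1 1370382_at, limits what dim probe sets can show.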
